A study of Mus musculus with 17 samples.

Results

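The amino acid stress response genes Asns, Atf4, Atf5, Ddit3, Trib3, Chac1, Sesn2, Psat1, Phgdh and Slc7a11, were followed across a count table of 35321 genes. These 10 members were taken from the table by symbol, and each was present once and passed the filter on low counts. The set was chosen by the measured CPM of Asns across the groups: its level was high 24 h after lipopolysaccharide (LPS) and was high at 72 h where the interleukin-10 receptor (IL-10R) had been blocked. Its values are therefore given as a description with no test. The other 9 members were listed with earlier results of these data known, and their tests are not independent support for that pattern.

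Polyadenylated RNA was sequenced from sorted bone marrow HSPC (hematopoietic stem and progenitor cells), the immature cells that give rise to all blood lineages. All mice were wild type and of the inbred strain C57BL/6J. LPS is a component of the bacterial outer membrane that elicits inflammation, and the antibody blocks the receptor for interleukin-10, a cytokine that limits inflammation. The comparisons ask how the progenitors respond to LPS and how blockade of the receptor alters that response over time.

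There were 17 libraries in 5 groups, and all injections were intraperitoneal. The control group received phosphate-buffered saline (PBS) and held 5 libraries. The other groups of 3 libraries each received LPS, or LPS with the IL-10R blocking antibody, with marrow taken at 24 h or at 72 h. No group received the antibody without LPS, and PBS libraries are titled as day 0, so PBS animals were not matched to each time. The amounts of LPS and antibody are given in micrograms in one description and in milligrams in another, and neither unit was assumed. Age and sex are not given in the sources used here. The labels do not say whether a library is 1 mouse or a pool, so p-values measure the spread between these libraries, which may be partly technical.

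Amino acid shortage and other stresses are sensed by the eIF2alpha kinases GCN2, PERK, HRI and PKR, a system known as the integrated stress response. Phosphorylation of eIF2alpha lowers general protein synthesis while translation of the transcription factor ATF4 rises. ATF4 pairs with C/EBP and other leucine zipper proteins at C/EBP-ATF response elements (CARE) and raises transcription of genes for amino acid synthesis, uptake and tRNA charging. ATF4 protein is controlled largely by translation, and messenger RNA was measured here, so neither ATF4 protein nor eIF2alpha phosphorylation can be read from these values.

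The CARE core was searched for as TGATGNAA on both strands, the reverse strand reading TTNCATCA, in windows of 250 bases before to 50 bases after each start site in RefSeq (GRCm38.p6). All 10 members had at least 1 window. Among all 32851 promoters searched, 3.97% held the core. Windows of 4 members, Asns, Trib3, Chac1 and Slc7a11, held it, and their matches are printed here because they carry the letters that ATF4 and its partners are known to bind. The capitals mark the core, or for Asns the longer element NSRE-1 (TGATGAAAC), which contains it and occurred in 0.247% of promoters on either strand.
Asns, chr6:7693214-7693243, minus strand: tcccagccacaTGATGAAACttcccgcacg
Trib3, chr2:152344028-152344057, minus strand: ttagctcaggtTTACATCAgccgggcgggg
Chac1, chr2:119351019-119351086, plus strand: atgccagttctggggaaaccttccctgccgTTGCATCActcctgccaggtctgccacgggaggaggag
Slc7a11, chr3:50443623-50443709, minus strand: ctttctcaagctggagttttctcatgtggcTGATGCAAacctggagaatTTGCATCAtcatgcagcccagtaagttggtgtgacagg

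The Asns match began 23 bases before the RefSeq start, and the Asns window also held NSRE-2 (GTTACA), which 8.25% of promoters held on either strand. Trib3 held its match 15 to 22 bases after its start, on the reverse strand. Chac1 held a reverse-strand match 193 bases before the start. Slc7a11 held 2 matches, 1 on each strand. The windows of Atf4, Atf5, Ddit3, Sesn2, Psat1 and Phgdh held no match to these letters. A match is a description of the letters only. The 4 members with the core did not share 1 pattern of mean RNA. Asns, Chac1 and Slc7a11 had higher means in each group sampled at 24 h than in PBS. Trib3 had lower means, at 1.4 CPM with LPS and 2.08 CPM with antibody against 2.29 CPM in PBS. By edgeR, Chac1 did not pass against PBS at 24 h, and Slc7a11 passed only with antibody (adjusted p = 0.0374). Trib3 did not pass in any comparison, and Asns was not tested. Chac1, Slc7a11 and Trib3 had few reads.

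Total counts per library ranged from 10516722 to 16006001. Of all genes, 14920 passed the filter and were tested, and they held 99.9% of the counts. Levels are given as CPM (counts divided by the scaled library total) scaled by TMM factors, which ran from 0.947 to 1.12 except in LPS library 1 at 24 h, where the factor was 0.799. HSPC markers, 11 genes including Kit and Cd34, were present in every group. They summed to 1750 to 2580 CPM in PBS and 1830 to 2400 CPM with LPS at 72 h. The sums were 1090 to 1250, 1190 to 1460 and 1240 to 1800 CPM in the LPS 24 h, antibody 24 h and antibody 72 h groups. Asns was high in these groups. The markers did not move together. In the same order, mean Flt3 was at 81.6, 122 and 193 CPM against 446 CPM in PBS. Mean Ly6a was at 162, 285 and 261 CPM against 61.7 CPM, and mean Kit at 290, 322 and 390 CPM against 399 CPM. Neutrophil lineage markers (9 genes) summed to 2530 to 17600 CPM over all libraries. Macrophage markers (12 genes) summed to 321 to 3010 CPM in PBS and to 36.9 to 389 CPM over the other groups, and B lymphoid markers (9 genes) to 395 to 1360 and 60.3 to 406 CPM. No marker of these lists was at 0 throughout a group. Their part in the results was not tested, and in bulk RNA fewer cells of a type and less RNA per cell cannot be told apart.

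Phgdh was the most abundant member in PBS per length, at 148 CPM per kilobase of exon, followed by Atf4 (75.1), Psat1 (34.1), Asns (11.3), Atf5 (8.13), Ddit3 (6.77), Sesn2 (3.86), Trib3 (1.08), Chac1 (0.401) and Slc7a11 (0.0676). The order sets mean levels per kilobase, and Chac1 and Slc7a11 rested on few reads.

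Asns encodes asparagine synthetase, which makes asparagine from aspartate and glutamine, and lies on chromosome 6 (GRCm38, 7675169 to 7693254, minus strand). In PBS it was at 36.4, 18.4, 32.1, 32.9 and 34.5 CPM, a mean of 30.9 ± 7.14 (SD, n = 5). With LPS at 24 h it was at 113, 63.6 and 91.7 CPM (89.3 ± 24.6, SD, n = 3), and with LPS and antibody at 24 h at 144, 82.2 and 45.1 CPM (90.3 ± 49.7, SD, n = 3). All 6 libraries of 24 h lay above the PBS range. At 72 h the LPS libraries were at 14.4, 27.1 and 10.3 CPM (17.3 ± 8.77, SD, n = 3), overlapping the PBS range at its lower end. With antibody at 72 h they were at 102, 54.1 and 71.9 CPM (75.9 ± 24, SD, n = 3), above every PBS library and every LPS library of 72 h. The ratio of mean CPM was 2.89 for LPS over PBS at 24 h, 2.93 for LPS with antibody over PBS at 24 h, and 4.39 for LPS with antibody over LPS at 72 h. Ordered from the highest mean, antibody at 24 h came first, then LPS alone at 24 h, antibody at 72 h, PBS, and LPS alone at 72 h. The first 3 groups of that order overlapped one another, as did PBS and LPS at 72 h.

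**Figure D1:**
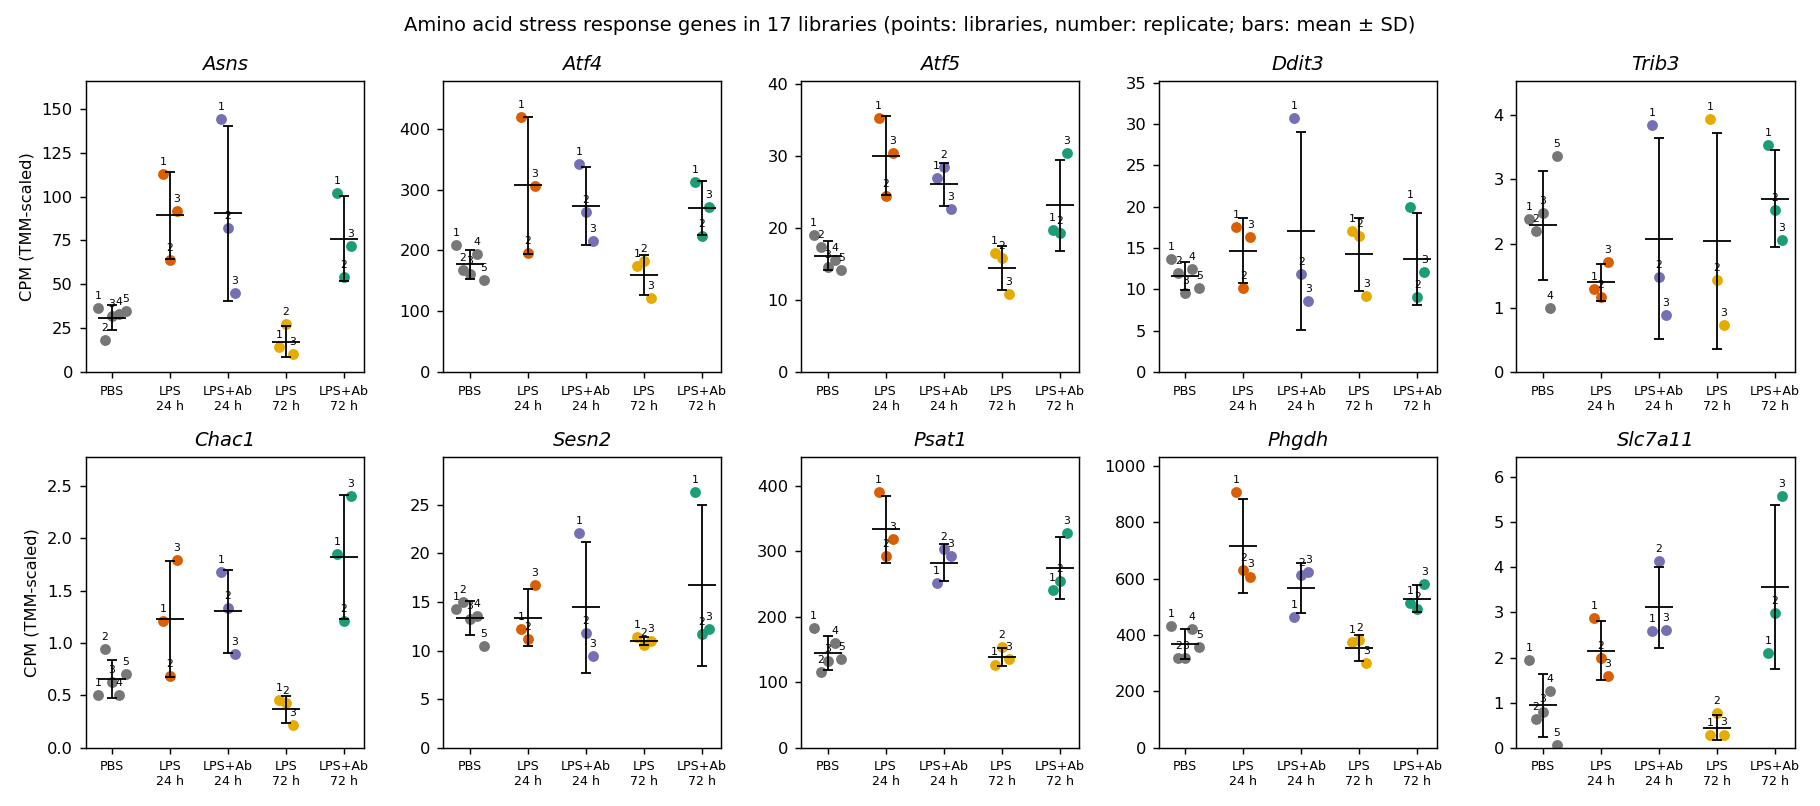
CPM (TMM-scaled, linear axis from 0) of the 10 members in each library, with the replicate number at each point; horizontal lines give the mean and error bars the SD of each group (PBS, n = 5; LPS and LPS+Ab, LPS with IL-10R blocking antibody, at 24 h and 72 h, n = 3 each). Asns with antibody at 72 h lies between 54.1 and 102 CPM, and LPS at 72 h between 10.3 and 27.1 CPM.

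Among the transcription factors, Atf4 and Atf5 rose at 24 h after LPS and Ddit3 did not pass the test. Atf4 encodes the central factor of the response (chromosome 15, 80255184 to 80257541, plus strand). Its level was 209, 168, 162, 194 and 151 CPM in PBS (177 ± 24.1, SD, n = 5). LPS at 24 h gave 420, 195 and 306 CPM and LPS with antibody at 24 h gave 342, 263 and 215 CPM. LPS library 2 at 24 h lay inside the PBS range, and the antibody libraries lay above it. At 72 h the LPS libraries were at 174, 183 and 121 CPM and the antibody libraries at 313, 224 and 272 CPM, with no overlap between these groups. Tests were edgeR quasi-likelihood tests over all 14920 genes with Benjamini-Hochberg adjustment, called at an adjusted p under 0.05. By edgeR, Atf4 was higher with LPS at 24 h than in PBS by 0.79 ± 0.218 (log2, SE, adjusted p = 0.0105). It was higher with LPS and antibody at 24 h than in PBS by 0.63 (edgeR adjusted p = 0.0469). The antibody difference at 72 h was 0.76 ± 0.249 (log2, SE), and it did not pass at an edgeR adjusted p of 0.0516. Without LPS library 1 at 24 h, which has the highest Atf4 level, the change against PBS was 0.52 with an edgeR adjusted p of 0.101. The call for LPS with antibody at 24 h was lost without antibody library 1 (0.44, edgeR adjusted p = 0.199) or antibody library 2 (0.66, 0.108), and without PBS library 2, 3, 4 or 5 (adjusted p of 0.0877, 0.0808, 0.0557 and 0.0905). It was also lost with upper-quartile factors (0.52, edgeR adjusted p = 0.0749).

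Atf5 encodes a related factor of the same family (chromosome 7, 44812256 to 44816658, minus strand). Its levels were 19.1, 17.4, 14.6, 15.6 and 14.2 CPM in PBS, 35.3, 24.4 and 30.5 CPM with LPS at 24 h, and 27, 28.5 and 22.7 CPM in the antibody group of 24 h. All 6 libraries of 24 h lay above PBS. At 72 h the LPS libraries were at 16.5, 15.8 and 10.9 CPM and the antibody libraries at 19.7, 19.3 and 30.5 CPM. By edgeR, Atf5 rose by 0.89 ± 0.185 with LPS at 24 h (log2, SE, adjusted p = 0.00215) and by 0.69 with LPS and antibody (adjusted p = 0.0175), both against PBS. The call with antibody at 24 h was lost without antibody library 2 (0.62, edgeR adjusted p = 0.0819). At 72 h it was higher with antibody than without by 0.69 ± 0.213 (edgeR adjusted p = 0.0406), a call that was lost without any of the LPS libraries 1, 2 or 3 (0.0718, 0.0728 and 0.098) and without antibody library 3 (0.44, 0.166). It was also lost with upper-quartile factors (0.0575), with no filter on low counts (0.0519) and with only the groups compared in the fit (0.125). Atf5 shares exon bases with Il4i1 and Nup62 on the opposite strand, and the strand setting of the counting is not given in the sources used here, so its counts are uncertain.

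Ddit3 encodes CHOP, a factor linked to cell death under prolonged stress (chromosome 10, 127290774 to 127296288, plus strand). It ranged from 9.58 to 13.7 CPM in PBS, 10.2 to 17.5 with LPS at 24 h, 8.54 to 30.7 when the antibody was added at that time, and at 72 h 9.14 to 17.1 without and 9.06 to 19.9 with antibody. These ranges overlapped throughout. By edgeR the antibody difference at 72 h was -0.05 with a 95% interval of -0.92 to 0.81 (log2), an interval that spans both directions. Its exons overlap those of Mars and Gm4189 on the opposite strand, and 2 gene records carry the symbol, so its counts are uncertain. Trib3, a pseudokinase that restrains ATF4 and CHOP (chromosome 2, 152337422 to 152344032, minus strand), was low, at 0.731 to 3.94 CPM over all libraries. Its difference from PBS was -0.7 with LPS at 24 h (log2, edgeR adjusted p = 0.319), and the antibody difference at 72 h was 0.42 with a 95% interval of -0.82 to 1.66.

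Both serine synthesis enzymes rose at 24 h after LPS, with and without antibody. At 72 h both were called higher with antibody than without, and the Phgdh call was lost in several alternative settings. Psat1 encodes phosphoserine aminotransferase (chromosome 19, 15904678 to 15947337, minus strand). It was at 182, 115, 132, 160 and 135 CPM in PBS (145 ± 26.5, SD, n = 5). It was at 390, 292 and 318 CPM with LPS at 24 h and at 251, 304 and 293 CPM when the antibody was added. Every library of 24 h exceeded every PBS library. At 72 h the LPS libraries were at 127, 153 and 136 CPM, inside the PBS range, and the antibody libraries at 240, 254 and 328 CPM, above it. By edgeR the change from PBS was 1.2 ± 0.153 with LPS at 24 h (log2, SE, adjusted p = 0.000397), 0.97 with antibody at 24 h (0.00355) and 0.92 with antibody at 72 h (0.00628). The antibody difference at 72 h was 0.98 ± 0.176 (edgeR adjusted p = 0.00327), a ratio of mean CPM of 1.98. These 4 calls for Psat1 held in each of the 6 alternative settings and without any 1 library.

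Phgdh encodes phosphoglycerate dehydrogenase, the first enzyme of the serine pathway (chromosome 3, 98313170 to 98339990, minus strand). PBS libraries were at 431, 319, 317, 420 and 359 CPM, LPS libraries of 24 h at 909, 630 and 608 CPM, and antibody libraries of 24 h at 464, 613 and 623 CPM. All of the 24 h libraries were above PBS. At 72 h LPS gave 377, 383 and 300 CPM and LPS with antibody gave 514, 492 and 583 CPM. By edgeR the change from PBS was 0.95 ± 0.16 with LPS at 24 h (adjusted p = 0.000719), 0.62 with antibody at 24 h (0.0151) and 0.52 with antibody at 72 h (0.0444). The 24 h antibody call was lost without antibody library 2 (0.56, 0.0733). The 72 h call against PBS was lost without antibody library 1 (0.0792) or 3 (0.148), or PBS library 2 (0.0975), 3 (0.0715) or 5 (0.0699), and with upper-quartile factors (0.0621). The antibody difference at 72 h was 0.58 ± 0.182 (edgeR adjusted p = 0.0421), and that call was lost without LPS library 1 (0.098), 2 (0.0751) or 3 (0.0868), or antibody library 1 (0.0579) or 3 (0.108). It was also lost with upper-quartile factors (0.0526), with no filter on low counts (0.0532) and with only the groups compared in the fit (0.0538).

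Chac1 and Slc7a11 act on glutathione and cystine and were higher with antibody than without at 72 h. Chac1 degrades glutathione (chromosome 2, 119351229 to 119354381, plus strand). It was at 0.503, 0.945, 0.631, 0.501 and 0.702 CPM in PBS, 1.21, 0.687 and 1.79 CPM with LPS at 24 h, and 1.68, 1.33 and 0.894 CPM in the antibody group of that time. The libraries of 72 h were at 0.458, 0.423 and 0.219 CPM with LPS, which were 5, 5 and 3 reads, and at 1.85, 1.21 and 2.4 CPM with antibody. By edgeR the antibody difference at 72 h was 2.31 ± 0.462 (log2, SE, adjusted p = 0.00551), and the change from PBS with antibody at 72 h was 1.48 ± 0.366 (adjusted p = 0.0199). The second of these was lost without antibody library 1 (0.0552) or 3 (0.0956). Its change from PBS with LPS at 24 h was 0.91 (edgeR adjusted p = 0.0674).

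Slc7a11 encodes xCT, the transport subunit that imports cystine (chromosome 3, 49892526 to 50443614, minus strand). It was at 1.95, 0.63, 0.803, 1.25 and 0.0702 CPM in PBS, the last resting on 1 read. It was at 2.87, 1.99 and 1.59 CPM with LPS at 24 h and 2.59, 4.14 and 2.6 CPM with LPS and antibody at 24 h. LPS at 72 h gave 0.275, 0.761 and 0.293 CPM, which were 3, 9 and 4 reads, and LPS with antibody gave 2.1, 2.99 and 5.59 CPM, above all PBS libraries. By edgeR the antibody difference at 72 h was 2.99 ± 0.717 (log2, SE, adjusted p = 0.0128), and it was lost without LPS library 1 (2.76, 0.07). Against PBS, Slc7a11 was higher with antibody at 24 h by 1.7 ± 0.556 (edgeR adjusted p = 0.0374) and at 72 h by 1.9 (0.0361). The 24 h call was lost without PBS library 2 (0.0787) or 3 (0.0709), or antibody library 1 (0.053) or 2 (0.148), and the 72 h call without PBS library 2 (0.0796) or 3 (0.0678), or antibody library 3 (1.41, 0.164). With only the groups compared in the fit, neither passed (edgeR adjusted p of 0.0603 at 24 h and 0.0727 at 72 h).

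Sesn2, which restrains mTORC1 when leucine is scarce (chromosome 4, 132492032 to 132510501, minus strand), ranged from 10.5 to 15 CPM in PBS, 11.2 to 16.7 with LPS at 24 h and 9.43 to 22.1 with antibody at 24 h. At 72 h it was at 11.4, 10.6 and 11 CPM with LPS and 26.3, 11.7 and 12.2 CPM with antibody. The difference at 72 h was 0.61 (log2, edgeR adjusted p = 0.203, 95% interval -0.08 to 1.3). Antibody library 1 was high, and the other two antibody libraries lay within 2 CPM of the LPS libraries.

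Counted by comparison, 4 of the 9 members were called higher with LPS at 24 h than in PBS and 0 lower, where 19.1% of all genes tested were called higher and 18.5% lower. The median log2 change was 0.89 for the 9 members and -0.03 for all genes. With LPS and antibody at 24 h, 5 were higher than in PBS and 0 lower, against 11.7% and 12.5% of all genes. With LPS and antibody at 72 h, 4 were higher than in PBS and 0 lower, against 6.81% and 6.43%. With LPS at 72 h, 0 of 9 differed from PBS by edgeR, 0 had an unadjusted p under 0.05, and DESeq2 also called 0. Of all genes 0.0201% were called higher and 0% lower in that comparison. For antibody against none, 5 members were higher and 0 lower at 72 h, where 8.64% of all genes were called higher and 6.48% lower, with a median of 0.69 for the members and 0.01 for all genes. At 24 h edgeR and DESeq2 called 0 members, 0 members had an unadjusted p under 0.05, and 0% of all genes were called by edgeR. The comparisons with PBS share the same 5 control libraries.

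Read by whether the libraries of both groups overlapped, 3 of 9 members were apart for LPS against PBS at 24 h, beside 42.8% of all genes, so the members did not exceed the background by this measure. With antibody against PBS, 5 of 9 were apart at 24 h, beside 31%, and 6 of 9 at 72 h, beside 26.9%. LPS at 72 h against PBS had 1 of 9 apart, beside 12%. For antibody against LPS alone, 0 of 9 were apart at 24 h, beside 3.15%, and 7 of 9 at 72 h, beside 33.2%; the 7 were all members but Ddit3 and Trib3. For LPS at 72 h against 24 h, 6 of 9 were apart, beside 45.4%, and for the antibody groups over time 0 of 9, beside 9.26%.

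**Figure D2:**
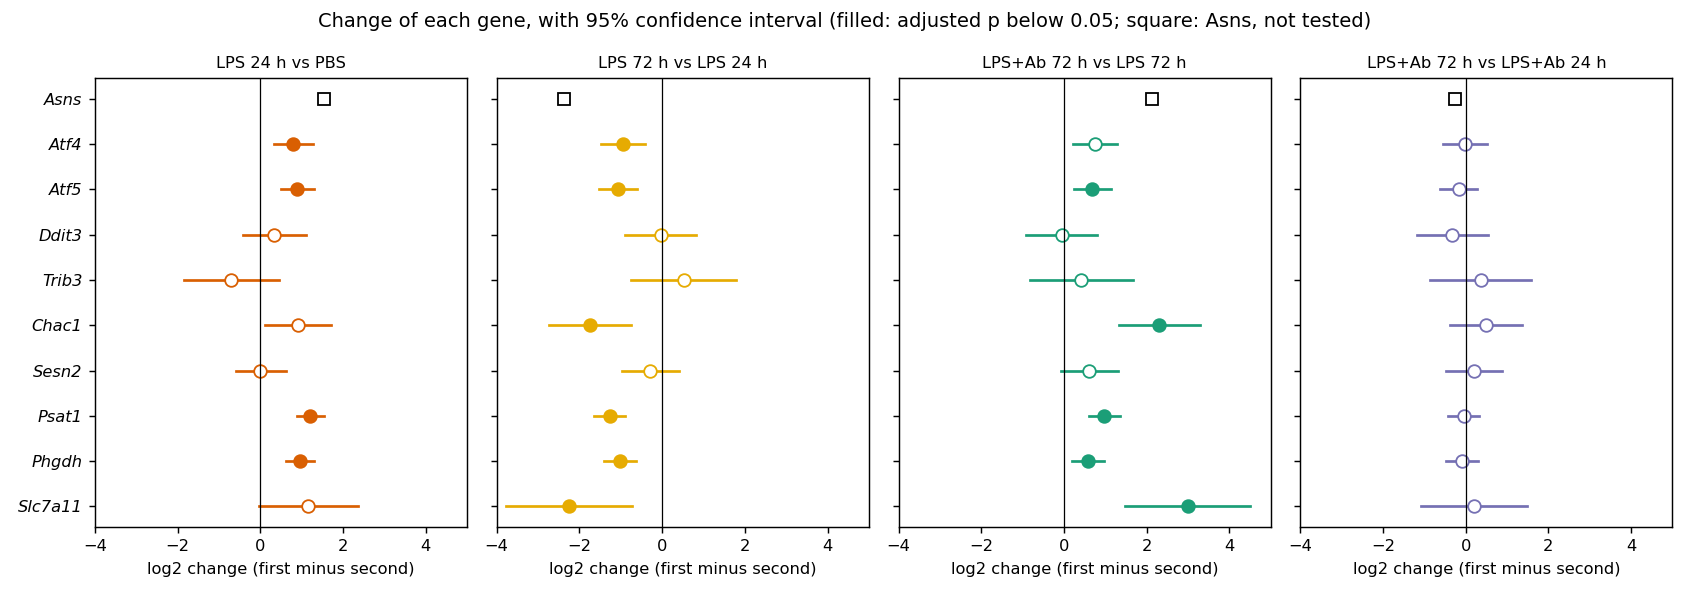
Log2 change of each member (horizontal axis) in 4 comparisons, with the 95% interval from edgeR; filled circles passed an adjusted p under 0.05, open circles did not, and the square is Asns, which was not tested (LPS+Ab, LPS with IL-10R blocking antibody). With antibody at 72 h against antibody at 24 h no circle is filled. For antibody against LPS alone at 72 h, Chac1 (2.31) and Slc7a11 (2.99) lie farthest to the right of the 9 tested members.

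Over time, 6 of 9 members fell from 24 h to 72 h after LPS alone and 0 rose, against 16.4% of all genes called lower and 14.7% higher. The falls by edgeR were 0.94 for Atf4 (adjusted p = 0.0102), 1.06 for Atf5 (0.00201), 1.74 for Chac1 (0.0109), 1.27 for Psat1 (0.000239), 1.02 for Phgdh (0.000991) and 2.25 for Slc7a11 (0.0268), all log2. Mean Asns was 5.17 times as high at 24 h as at 72 h. The Atf4 call was lost without LPS library 1 of 24 h (-0.64, 0.0694), the Chac1 call without LPS library 3 of 24 h (-1.37, 0.0605), and the Slc7a11 call without LPS library 1 of 24 h (0.0825) or LPS library 1 (0.0944) or 3 (0.0887) of 72 h. With antibody, 0 members differed between 72 h and 24 h by edgeR or DESeq2, 0 had an unadjusted p under 0.05, and 0% of all genes were called by edgeR. Mean Asns at 72 h was 0.841 times that at 24 h.

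The difference between the antibody effects at 72 h and at 24 h was tested as an interaction, and 3 of 9 members passed, all with the larger effect at 72 h, against 4.03% of all genes in that direction and 2.32% in the other. By edgeR these were Psat1 (1.22 ± 0.247, log2, SE, adjusted p = 0.0138), Chac1 (2.23 ± 0.618, 0.0448) and Phgdh (0.92 ± 0.258, 0.0454). Psat1 passed in each alternative setting and without any 1 library. Chac1 did not pass without any 1 of LPS library 1 (0.0693) or 3 (0.114) or antibody library 1 (0.0616), 2 (0.0507) or 3 (0.115) of 24 h, or LPS library 1 (0.0885), 2 (0.0792) or 3 (0.0829) or antibody library 1 (0.0651) or 3 (0.0975) of 72 h. Phgdh did not pass without any 1 of LPS library 1 (0.0904) or antibody library 1 (0.102) or 3 (0.0826) of 24 h, or LPS library 1 (0.0922), 2 (0.0704) or 3 (0.0666) or antibody library 1 (0.0537) or 3 (0.0928) of 72 h. With upper-quartile factors, with no filter on low counts and with only the groups compared in the fit, the edgeR adjusted p was 0.0563, 0.0678 and 0.103 for Chac1 and 0.054, 0.0601 and 0.0824 for Phgdh, so neither passed. Atf4 (0.92, adjusted p = 0.12), Atf5 (0.9, 0.0813) and Slc7a11 (2.45, 0.124) did not pass by edgeR.

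The pathway around these members was read through 9 lists that hold none of them. Some genes stand in more than 1 list. The lists are described for 2 comparisons, LPS at 24 h against PBS and antibody against none at 72 h, in which 19.1% and 8.64% of all genes were called higher. With LPS at 72 h against PBS, and for the antibody at 24 h, edgeR called 0 genes in any list. Of all genes, 0.0201% were called higher and 0% lower in the first of these, and 0% in the second. Counts of 0 therefore cannot set the lists apart from other genes.

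Of the 20 cytosolic aminoacyl-tRNA synthetases, which load amino acids onto tRNA, 18 rose with LPS at 24 h and 0 fell, with a median log2 change of 0.89. For antibody at 72 h 15 were higher and 0 lower, with a median of 0.85. Gars, the glycine enzyme, had means of 131 ± 19.8 CPM in PBS, 293 ± 50.6 with LPS at 24 h, 116 ± 3.72 with LPS at 72 h and 251 ± 29.7 with antibody at 72 h. By edgeR its changes were 1.16 (adjusted p = 0.000314) and 1.11 (0.00122) in the 2 comparisons. Farsb (1.04) and Rars (1.02) also rose with LPS at 24 h, and Nars (1.09) and Wars (1.25) were higher with antibody at 72 h. Antibody against PBS gave 19 of 20 higher at 24 h, where 11.7% of all genes were higher, and 15 of 20 at 72 h, beside 6.81%.

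Of 13 amino acid transporters, 6 were higher with LPS at 24 h (median 0.56) and 7 with antibody at 72 h (median 0.62), and 0 were lower in either. Slc7a5, the large neutral amino acid transporter, was at 122 ± 24.8 CPM in PBS, 281 ± 21 with LPS at 24 h, 81.8 ± 8.42 with LPS at 72 h and 249 ± 9.91 with antibody at 72 h. Its edgeR changes were 1.21 ± 0.174 (adjusted p = 0.000487) and 1.6 ± 0.204 (0.00122). Slc1a4, a carrier of alanine, serine and cysteine, rose by 1.23 with LPS at 24 h and was 2.75 ± 0.391 higher with antibody at 72 h (edgeR adjusted p = 0.00125). The LPS libraries of 72 h held 10 to 12 Slc1a4 reads each and lay below every PBS library. Against PBS, antibody at 72 h was 1.08 higher (edgeR adjusted p = 0.0335). Slc7a1, which carries arginine and lysine, rose by 0.74 with LPS at 24 h (edgeR adjusted p = 0.00635). Slc7a3 was called higher with antibody at 72 h, on 40 reads summed over 3 libraries against 4.

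In serine, glycine and one-carbon metabolism, 9 of 12 tested genes were higher and 1 lower with LPS at 24 h (median 0.8), and 7 were higher and 1 lower with antibody at 72 h (median 0.71). Mthfd2, a mitochondrial folate enzyme, was at 34.7 CPM in PBS, 93.7 with LPS at 24 h, 31.6 with LPS at 72 h and 83.7 with antibody at 72 h. By edgeR its changes were 1.43 ± 0.22 (adjusted p = 0.000532) and 1.41 ± 0.258 (0.00357). Gcsh (1.04) and Shmt2 (1), of glycine cleavage and of serine to glycine conversion, rose with LPS at 24 h. Aldh1l2 was at 2 reads summed over the LPS libraries of 72 h and 47 over the antibody libraries. Amt, also of glycine cleavage, was lower with antibody at 72 h by -1.04 (edgeR adjusted p = 0.0362).

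In asparagine, aspartate, glutamate and proline metabolism, 8 of 14 tested genes were higher and 1 lower with LPS at 24 h (median 0.61), and 5 were higher and 1 lower with antibody at 72 h (median 0.31). Got1, an aspartate aminotransferase, changed by 1.19 (edgeR adjusted p = 0.000487) and 1.04 (0.005). Gpt2, an alanine aminotransferase, changed by 1.06 (0.000743) and 0.84 (0.0141). Aldh18a1, which starts proline synthesis, was 1.02 higher with antibody at 72 h (edgeR adjusted p = 0.00125). Glul, glutamine synthetase, was lower with LPS at 24 h by -1.01 (edgeR adjusted p = 0.019), and Gpt was lower with antibody at 72 h by -0.88 (0.0362).

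Among the kinases, eIF2 subunits and regulators of the integrated stress response, 10 of 16 were higher with LPS at 24 h (median 0.54) and 7 with antibody at 72 h (median 0.59), and 0 were lower in either. Eif2b3 (1.43 and 1.25) and Eif2s2 (1.14 and 1.08), which encode subunits of eIF2B and of eIF2, passed in both comparisons, and Eif2b5 (1.05) rose with LPS at 24 h. Eif2ak2, which encodes PKR, was 0.97 higher with antibody at 72 h (edgeR adjusted p = 0.0336), with overlapping libraries. Of 10 dimer partners of ATF4, 2 rose and 1 fell with LPS at 24 h (median 0.02). Cebpb rose by 1.5 ± 0.329 (edgeR adjusted p = 0.00299) and Cebpa by 0.89 (0.0109), and Fos fell by 1.29 (0.0172). With antibody at 72 h 0 partners were higher, and Batf3 was lower by -1.97 (0.0181).

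Of the other known ATF4 targets, 16 of 19 were tested. With LPS at 24 h 6 were higher and 2 lower (median 0.43), and with antibody at 72 h 6 were higher and 2 lower (median 0.97). Nupr1, a stress-response chromatin protein, was 1.76 higher with antibody at 72 h (edgeR adjusted p = 0.048), with overlapping libraries. Stc2 was called higher with LPS at 24 h, on 48 reads over 3 libraries against 18 over 5 in PBS. Gdf15 was called lower with LPS at 24 h, on 4 reads over 3 libraries against 88 over 5. Of the glutathione and cystine list, 3 of 7 tested genes were higher in each comparison (medians 0.7 and 0.78) and 0 lower. These were Ggct (0.83 and 0.9), Gclm (0.75 and 0.93), the regulatory subunit of the first glutathione synthesis enzyme, and Slc3a2 (0.7 and 0.95), the heavy chain that pairs with Slc7a11 and Slc7a5.

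**Figure D3:**
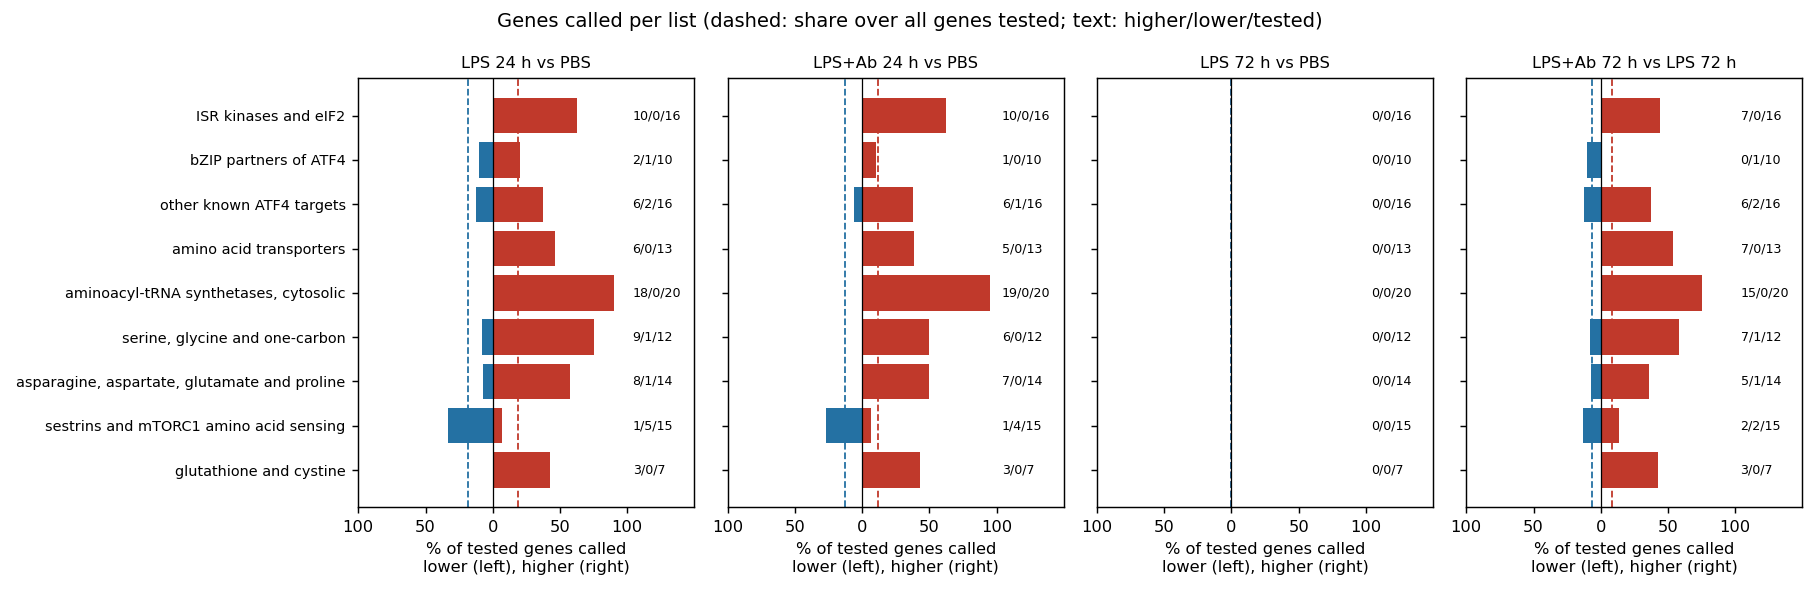
Percent of the tested genes of each pathway list called higher (right) or lower (left) by edgeR in 4 comparisons, with dashed lines at the percent of all 14920 genes called in that direction and the counts higher, lower and tested at the right (LPS+Ab, LPS with IL-10R blocking antibody). The tRNA synthetases reach 18 of 20 higher with LPS at 24 h and 15 of 20 with antibody at 72 h.

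The genes whose levels ran most like those of Asns were ranked by Pearson correlation of log2 CPM over the 17 libraries, among the more abundant tested genes. They were Poldip2, Trnt1, Lrrc47, Plscr1, Metap2, Josd1 and Ddx19a, each at 0.93, and Ssx2ip, Aars and Psmd3, each at 0.92. Aars, the alanine tRNA synthetase, was at 125 to 165 CPM in PBS and 229 to 288 with LPS at 24 h. At 72 h it was at 110 to 116 CPM with LPS and 192 to 268 with antibody. Aars was picked for its likeness to Asns over these same libraries, so its pattern follows from that choice and is no separate support. Of these 10, 4 were also among the 10 highest by Spearman correlation. Among members, the correlation with Asns was 0.9 for Atf4, 0.84 for Atf5 and Psat1, 0.83 for Chac1, 0.78 for Phgdh, 0.75 for Slc7a11, 0.48 for Sesn2, 0.46 for Ddit3 and 0.18 for Trib3. Atf4 stood at rank 34 of 14919 tested genes. With group means removed, it was 0.79 for Ddit3, 0.76 for Atf4, 0.53 for Sesn2, 0.47 for Trib3, 0.42 for Chac1, 0.39 for Atf5, 0.27 for Psat1, 0.19 for Phgdh and 0.16 for Slc7a11. All of these correlations describe 17 libraries that share group and library differences, and they carry no p.

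Erythroid markers differed among libraries of the antibody groups, and several members were highest in the library with the highest erythroid sum. The summed CPM of 14 erythroid markers was 2940, 696 and 127 in antibody libraries 1, 2 and 3 of 24 h and 1780, 341 and 69 in those of 72 h. Megakaryocyte markers (5 genes) ran the same way, at 275, 149 and 47.6 CPM and at 280, 215 and 30.8 CPM, and neutrophil lineage markers the opposite way, at 4750, 11100 and 12400 CPM and at 3770, 10800 and 12600 CPM. In both groups, library 1 had the highest erythroid sum and the highest Asns, Atf4, Ddit3, Trib3 and Sesn2. At 24 h these members fell from library 1 to 2 to 3, as the erythroid sum did. At 72 h only Trib3 kept that order, and Asns, Atf4, Ddit3 and Sesn2 were higher in library 3 than in library 2. The highest Psat1 was in antibody library 2 at 24 h and in library 3 at 72 h. Antibody library 3 of 72 h, with the lowest erythroid sum of its group, had Asns at 71.9 CPM, above the highest LPS library of 72 h (27.1 CPM), and had the highest Psat1, Phgdh, Slc7a11, Atf5 and Chac1 of its group. The LPS libraries of 72 h had erythroid sums of 71 to 378 CPM, and PBS libraries of 481 to 789 CPM. LPS libraries 1, 2 and 3 of 24 h had sums of 1100, 592 and 1220 CPM, with Asns at 113, 63.6 and 91.7 CPM. Mean erythroid sums were 1260 CPM with antibody and 971 CPM with LPS alone at 24 h. They were 730 CPM with antibody at 72 h, 625 CPM in PBS and 207 CPM with LPS alone at 72 h. Mean Asns had the same order over the 5 groups. The part of erythroid, megakaryocyte or neutrophil lineage cells in the level of each member was not tested.

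**Figure D4:**
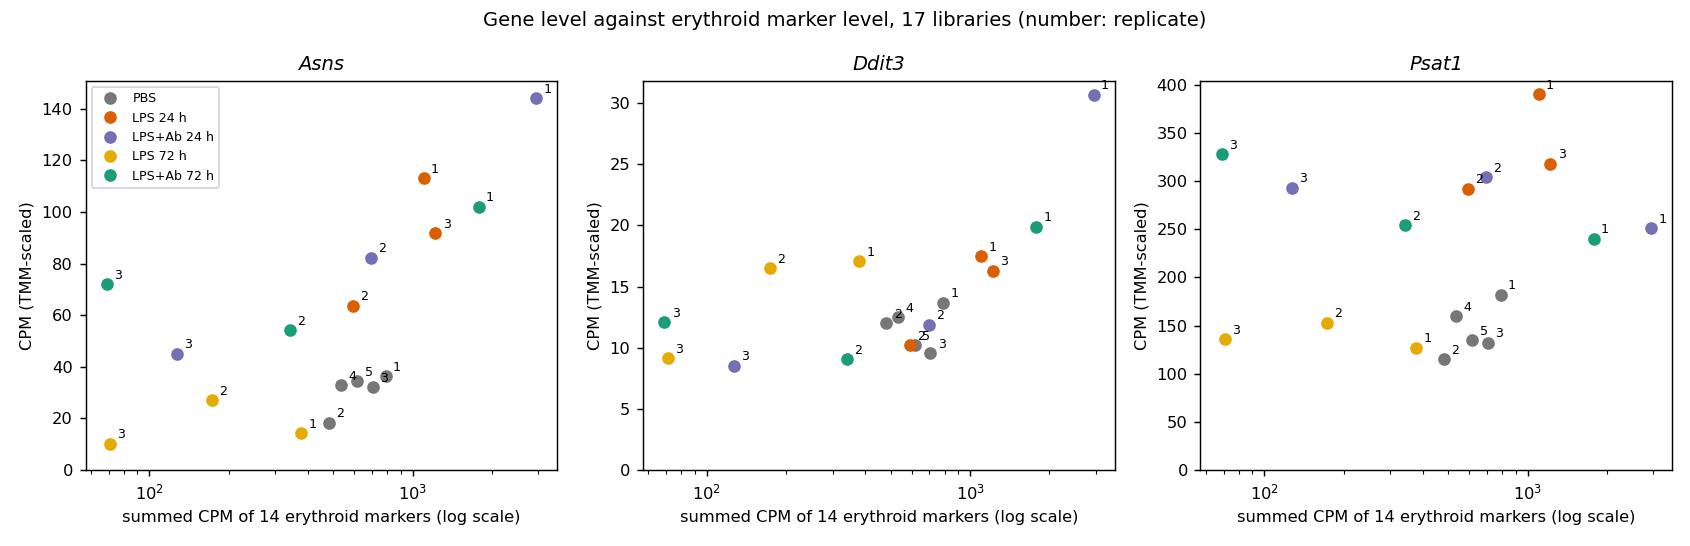
CPM (TMM-scaled, linear axis from 0) of Asns, Ddit3 and Psat1 against the summed CPM of 14 erythroid markers (log axis) in each of the 17 libraries, colored by group. Antibody library 1 of 24 h, at an erythroid sum of 2940 CPM, has the highest Asns (144 CPM) and Ddit3 (30.7 CPM), and antibody library 3 of 72 h, at 69 CPM, has Psat1 at 328 CPM.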

How the data were processed

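The authors deposited raw counts of reads per gene symbol for all 17 libraries. The submitters' processing notes name HISAT2 2.2.0, Subread, featureCounts 2.1.1, R 4.3.2, DESeq2 and GRCm38, with no roles. Strandedness, annotation and read filters are not given in the sources used here, so overlapping genes may share counts.

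Groups came from the sample titles. Counts were analysed with edgeR 4.0.16 (limma 3.58.1, R 4.3.3): filterByExpr defaults, TMM factors, 1 mean per group in 1 fit of all libraries, quasi-likelihood tests (two-sided) and Benjamini-Hochberg adjustment over 14920 genes, called under 0.05. CPM are counts over the tested total times the TMM factor. Alternatives included DESeq2 1.42.0. The test was tried on simulated counts with the same spread for every gene and no lineage differences between libraries. That trial does not measure the error rate of the calls made here. Positions and exon lengths are from GENCODE M21 (GRCm38). Members and lists were chosen with earlier results of these data known. The genes named from each list were up to 3 called genes with the greatest change in LPS at 24 h against PBS and in antibody against none at 72 h; the 10 genes most like Asns and all members were also named.

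Library numbers 1 to 3 recur across groups. Same-numbered PBS and LPS 24 h libraries deviated together from their group means (correlations 0.19, 0.19 and 0.16). Those of antibody at 24 h and at 72 h correlated at 0.72, -0.02 and 0.7. A fit with library number as a block was therefore run as an alternative, on the data alone. The changes, SE and p-values given in the Results come from fits without the block. The blocked count of members called in that comparison was 4, as without the block.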

Additional observations from a re-analysis of the deposited data

Results flagged for a closer look

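Asns in PBS library 2 was at 18.4 CPM, apart from the other 4 PBS libraries. Its gap to the nearest library was 0.764 of the group's range, above the 5-library limit of 0.71 used to flag values. Chance passes that limit in about 1 in 20 groups, and the PBS group was screened for each of the 10 members. Asns values chose this part, so the gap is a description and not a test. That library also had the highest macrophage (3010 CPM) and B lymphoid (1360 CPM) marker sums of the PBS group.

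By the test of the difference itself, the antibody effect at 72 h and at 24 h was called different for 3 members. The difference by edgeR was 1.22 for Psat1 (log2, adjusted p = 0.0138), 2.23 for Chac1 (0.0448) and 0.92 for Phgdh (0.0454). The Psat1 call held in each of the 6 alternative settings and without any 1 library. The Chac1 and Phgdh calls were each lost in 4 of the 6 settings, with adjusted p of 0.0563 to 0.103 and 0.054 to 0.0905, and without most single libraries. In antibody against LPS alone, these members were higher in all 3 libraries at 72 h, with no overlap, and overlapped at 24 h.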

How the results depend on the processing

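The 27 member changes called were recomputed under 6 alternative settings and without each library of the groups compared, which gave 368 values: 286 passed the threshold, 82 did not and 0 reversed. With plain library totals in place of TMM scaling, none of 50 group means of CPM moved beyond 1 SD of the group. That limit is wide where libraries differ, as for Asns with antibody at 24 h (90.3 ± 49.7 CPM, SD, n = 3). For antibody against LPS alone at 72 h, 3 members were called with upper-quartile factors, with no filter on low counts and with only the groups compared in the fit, against 5. For the difference of the antibody effects, 1 was called under each of these settings, against 3. With the replicate block, 2 members were called for LPS with antibody at 24 h against PBS, 1 at 72 h against PBS and 1 for the difference of the antibody effects. The calls lost with the block were Atf4 (0.076), Atf5 (0.0914) and Slc7a11 (0.0935) for antibody at 24 h against PBS, Chac1 (0.103), Phgdh (0.0922) and Slc7a11 (0.0904) for antibody at 72 h against PBS, Atf5 (0.0696) and Phgdh (0.0677) for antibody against LPS alone at 72 h, and Chac1 (0.103) and Phgdh (0.0905) for the difference of effects (edgeR adjusted p). The cause was not tested. The block changed no other count by over 1.5 times. Of 30 same-numbered pairs between groups, 14 correlated over 0.1 (range -0.42 to 0.72), and 10 of 15 libraries correlated best with their own number. Leaving out 1 library gave 3 to 5 members for LPS at 24 h against PBS, 1 to 6 with antibody at 24 h, 0 for LPS at 72 h, 1 to 5 with antibody at 72 h, 0 for antibody at 24 h, 2 to 6 for antibody at 72 h, 4 to 6 for LPS at 72 h against 24 h, 0 for the antibody groups over time and 1 to 4 for the difference of effects. Upper-quartile factors moved the median of all genes from -0.03 to -0.16 for LPS at 24 h against PBS and from 0.02 to 0.13 for LPS at 72 h against 24 h. Depth limits Chac1, Trib3 and Slc7a11, which had few reads per library.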

Other observations

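Genes of the sestrin and mTORC1 amino acid sensing list report leucine, arginine and other amino acids to the growth kinase mTORC1. With LPS at 24 h, 5 of 15 were called lower, 1 higher and 9 neither by edgeR (median log2 -0.12), where 18.5% of all genes were lower and 19.1% higher (median -0.03). With antibody against LPS alone at 72 h 2 were lower and 2 higher (median -0.25), where 6.48% of all genes were lower and 8.64% higher (median 0.01). Sesn3 fell from 53.5 ± 8.31 CPM in PBS to 19.8 ± 10 with LPS at 24 h, a change of -1.43 ± 0.267 (edgeR adjusted p = 0.00126). It was at 55.2 ± 0.164 CPM with LPS at 72 h and 33.7 ± 1.78 with antibody at 72 h, a difference that edgeR did not call. Castor2, also of this list, fell by 1.53 with LPS at 24 h (0.00139), and Rragd was at 3 reads over 3 LPS libraries of 24 h against 85 over 5 PBS libraries. At 72 h Sesn1 was lower with antibody by -1.12 (0.00939) and Nprl2 by -0.71 (0.0427), and Rraga was higher by 0.48 (0.0223). Sesn2, the sestrin that ATF4 is known to raise, did not pass in any of the 9 comparisons by edgeR, with an adjusted p of 0.203 for antibody at 72 h.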
